A study of Homo sapiens with 15 samples.

Results

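The genes described here code for the antioxidant enzymes of the cell, for the enzymes that supply them with NADPH, and for the transcription factor NRF2 with its partners. The list held 34 genes and was chosen by gene name and role, not by a measured value, though earlier results of these data were known. A transcript cluster, the set of probes that measures the transcripts of 1 locus, was found for 33 of them, out of 18377 genes named by a cluster of 1 symbol. PRDX5 had no such cluster and was not analysed here. MAFG was measured by 3 clusters and every other gene by 1, so that 35 of the 28926 clusters belonged to the list. They fell into genes of glutathione (12), thioredoxin and peroxiredoxin (10), catalase and the superoxide dismutases (3), NADPH supply and NQO1 (5) and the NRF2 regulators (3).

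MT-2 is an established CD4+ T-cell line that HTLV-1, the human T-cell leukaemia virus, has transformed. All groups were this 1 line, so that the 3 arrays of a condition stood for cultures of 3 separate experiments and not for donors. Cells were kept for 48 hours untreated, with ascorbic acid (AA, vitamin C) at a low (10 µg/ml), intermediate (50 µg/ml) or high dose (100 µg/ml), or with IFN-α2A at 1000 IU/ml, here called IFN-α. RNA of each culture was measured on 1 Affymetrix Human Gene 1.0 ST array, 15 arrays in all, and values are on the log2 scale.

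Glutathione and thioredoxin are the main thiol systems by which cells remove peroxides and repair oxidized proteins. Both are kept reduced by enzymes that use NADPH, much of which comes from the pentose phosphate pathway. Many of these genes share the regulator NRF2, which KEAP1 holds in check and marks for breakdown until oxidants or electrophiles modify KEAP1. NRF2 then pairs with a small MAF protein and binds antioxidant response elements in the promoters of its targets.

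The promoters are shown first because NRF2 binds its targets at that element. The core was searched as TGACNNNGC on both strands, from 250 bases before to 50 bases after the start site, in RefSeq promoters of GRCh38.p14. It was found in 4687 of 35116 promoters (13.3%). Of the 34 genes, 27 had a promoter entry, with 40 promoters among them, and 8 of these promoters (20%) held the core. They belonged to 7 of the 27 genes (25.9%, beside 16.1% of all genes with a promoter entry). These were GCLM, GSTP1, KEAP1, ME1, MGST1, PGD and TXNRD1. The stretches below cover the core, in capitals, with up to 40 bases on each side, and end before the start site. GSTP1 is shown as the gene that passed the lower threshold at high dose, and GCLM, ME1 and TXNRD1 as examples from glutathione synthesis, NADPH supply and the thioredoxin system. In GCLM and in the second TXNRD1 promoter the core lies on the opposite strand, so that the capitals are its reverse complement. The core of GSTP1 and of ME1 contains TGACTCA, which is also the motif of the AP-1 factors. A match describes these letters only.
GSTP1 (chr11:67583706-67583794, + strand): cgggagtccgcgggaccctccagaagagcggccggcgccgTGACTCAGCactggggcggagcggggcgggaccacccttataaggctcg
GCLM (chr1:93909431-93909504, - strand): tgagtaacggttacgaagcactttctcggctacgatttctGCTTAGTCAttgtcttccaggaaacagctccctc
ME1 (chr6:83431140-83431228, - strand): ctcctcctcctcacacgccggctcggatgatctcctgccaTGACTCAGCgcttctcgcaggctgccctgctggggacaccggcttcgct
TXNRD1, first promoter (chr12:104215640-104215728, + strand): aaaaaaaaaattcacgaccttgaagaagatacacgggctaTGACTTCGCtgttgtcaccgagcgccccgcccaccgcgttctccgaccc
TXNRD1, second promoter (chr12:104286890-104286978, + strand): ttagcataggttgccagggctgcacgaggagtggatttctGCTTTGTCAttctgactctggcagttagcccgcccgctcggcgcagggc
The core of GSTP1 lay 66 to 58 bases before the start site, that of ME1 137 to 129, and that of GCLM 34 to 26.

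The markers of the cell line were checked before the results. Of 10 genes of a CD4+ T cell transformed by HTLV-1, 9 lay above the lower quartile of all clusters on every array, among them CD4, IL2RA and CCR4, while CD28 lay below it on 2 arrays. The T-cell receptor genes CD3E and CD3G lay below it on 6 and 5 arrays. MS4A1 of B cells, LYZ of monocytes and KLRD1 of NK cells lay below it on all 15 arrays. Above it on every array lay 2 of 3 measured B-cell markers, 3 of 4 monocyte markers and 2 of 3 NK-cell markers. The same held for 2 of 2 markers of CD8 T cells and 1 of 1 of red cells. This quartile therefore does not tell the cell types apart. Of the 33 antioxidant genes, 30 lay above that quartile on every array, and GPX8, MGST1 and ME1 lay below it on all 15. High-dose AA replicate 3 stood apart from the other arrays: it had the highest value of the 15 in 29.7% of all clusters and the lowest in 23.4%, while no other array exceeded 11.3% and 12.6%. Differences of the 33 genes at high dose are given with and without it where they changed sign (8 genes) or moved by over 0.1. In these bulk samples, fewer cells of a type and less RNA per cell cannot be told apart.

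Neither AA nor IFN-α moved the antioxidant genes by much. At high dose the differences from untreated cells ran from -0.22 for PGD to 0.22 for NQO1, at the intermediate dose from -0.16 (MAFG) to 0.14 (ME1), at low dose from -0.14 (PRDX4) to 0.27 (NQO1), and under IFN-α from -0.14 (MGST2) to 0.13 (TXN). A log2 difference of 1 is a doubling. The 95% interval of every gene stayed within 1 log2 unit of no difference in each of these comparisons, and within 0.5 for 31 of 33 genes at high dose, 33 at the intermediate dose, 32 at low dose and 32 under IFN-α. The median standard error of a difference was 0.109.

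**Figure D1:**
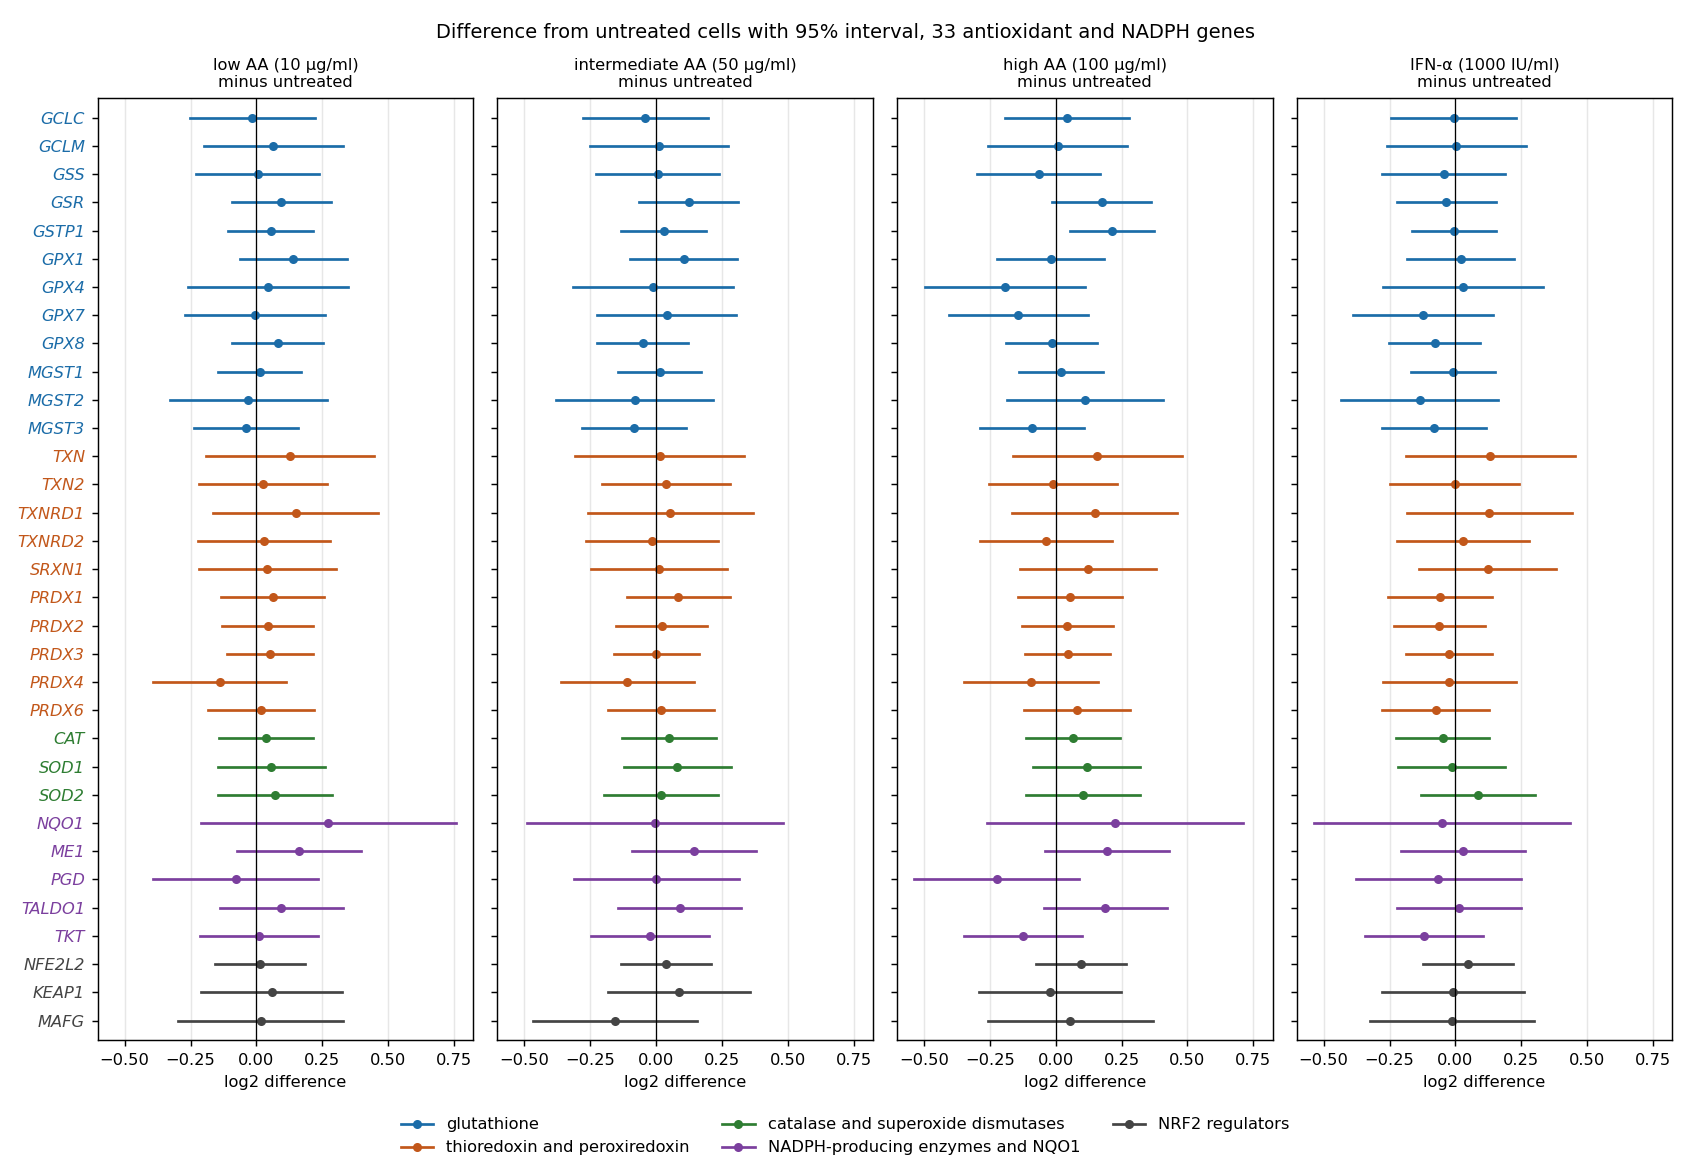
Log2 difference from untreated cells (x axis) of each of the 33 genes (y axis, coloured by role) for the 3 AA doses and IFN-α; points are limma estimates from 3 arrays per condition and lines their 95% intervals. At high dose the interval of GSTP1 alone leaves out 0, and no interval does so at the other doses or under IFN-α; MAFG is shown by its brightest cluster.

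Counts of genes were set beside the share of all clusters that passed the same threshold in the same limma fit. With the cut-off of the study, an unadjusted p under 0.001, 0 of 33 genes passed at high dose (0.259% of all clusters did), 0 at the intermediate dose (0.0311%), 0 at low dose (0.0207%) and 0 under IFN-α (0.280%). At an unadjusted p under 0.05, 1 gene passed at high dose, 3.03% of the 33, while 11.0% of all clusters did. At that threshold 0 genes passed at the intermediate dose (2.34% of all clusters), 0 at low dose (2.54%) and 0 under IFN-α (1.39%). None of the 33 passed a Benjamini-Hochberg adjusted p under 0.05 over all clusters in any comparison. The median difference of the 33 genes was 0.0451 at high dose, 0.0145 at the intermediate dose, 0.0426 at low dose and -0.0128 under IFN-α. That of all clusters was 0.0161, 0.00626, 0.00598 and -0.0080.

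**Figure D2:**
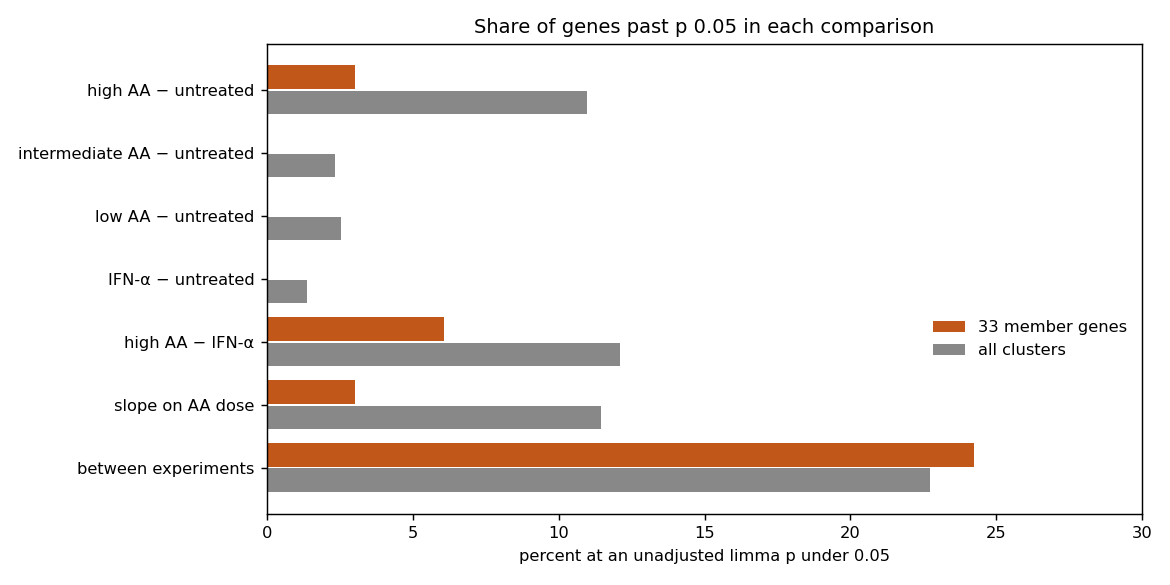
Percent of the 33 genes and of all clusters at an unadjusted limma p under 0.05 (x axis) in each of 7 comparisons (y axis). The genes reached 3.03% at high dose against 11.0% of all clusters, and 24.2% between experiments against 22.7%.

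The NRF2 regulators came first in the order of the pathway. NFE2L2, the gene of NRF2, had values of 10.23, 10.21 and 10.26 in untreated cells, 10.13, 10.23 and 10.38 at low dose, 10.30, 10.17 and 10.34 at the intermediate dose, 10.39, 10.25 and 10.35 at high dose, and 10.26, 10.25 and 10.33 under IFN-α, in the order of the experiments. All 5 groups overlapped, although high dose lay above untreated in 3 of 3 experiments. The difference at high dose was 0.10, with a 95% interval from -0.07 to 0.27 (limma adjusted p = 0.63).

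KEAP1, the adaptor that targets NRF2 for breakdown, had values of 8.92, 8.82 and 8.78 in untreated cells, 8.86, 8.86 and 8.97 at low dose, 9.04, 8.91 and 8.82 at the intermediate dose, 9.13, 8.84 and 8.48 at high dose, and 8.84, 8.79 and 8.86 under IFN-α. The high-dose arrays held both the highest and the lowest KEAP1 value of the 15, replicate 1 at the top and replicate 3 at the bottom. The difference at high dose was -0.02, with an interval from -0.29 to 0.25, and it was 0.15 without replicate 3.

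MAFG, a small MAF protein that pairs with NRF2, was read by 3 clusters, and they did not move together. Its brightest cluster, 8019796, had values of 8.84, 8.68 and 8.60 in untreated cells, 8.62, 8.68 and 8.86 at low dose, 8.59, 8.55 and 8.50 at the intermediate dose, 8.65, 8.46 and 9.17 at high dose, and 8.80, 8.52 and 8.75 under IFN-α. Cluster 8019798 had values of 7.22, 7.21 and 7.23 in untreated cells, 7.27, 7.31 and 7.24 at low dose, 7.11, 7.32 and 7.13 at the intermediate dose, 7.20, 7.43 and 6.80 at high dose, and 7.18, 7.31 and 7.10 under IFN-α. On high-dose replicate 3 the first was at its highest value of the 15 arrays and the second at its lowest. Cluster 8019308 had values of 8.01, 7.91 and 7.88 in untreated cells, 7.93, 7.92 and 8.05 at low dose, 7.82, 7.91 and 7.75 at the intermediate dose, 7.91, 7.89 and 7.91 at high dose, and 7.90, 7.91 and 7.91 under IFN-α. The differences at high dose were 0.05, -0.08 and -0.03 in that order, each with an interval across 0. Without high-dose replicate 3 the brightest cluster differed by -0.15. This cluster lay below untreated cells without overlap at the intermediate dose, by 0.16 (limma adjusted p = 1.0), and cluster 8019798 lay above them at low dose, with a difference of 0.05.

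Among the glutathione genes, GSTP1 was the one that passed the lower threshold. It codes for glutathione S-transferase P, which joins glutathione to electrophiles. Its values were 10.92, 10.99 and 10.96 in untreated cells, 11.02, 11.06 and 10.95 at low dose, 10.93, 11.03 and 10.99 at the intermediate dose, 11.05, 11.20 and 11.27 at high dose, and 10.88, 11.00 and 10.98 under IFN-α. The 3 high-dose arrays lay above all untreated, intermediate-dose and IFN-α arrays and overlapped with those of low dose, and the other groups overlapped with each other. The mean was 10.96 ± 0.03 (SD, n = 3) in untreated cells and 11.17 ± 0.11 (SD, n = 3) at high dose. The difference of 0.21 ± 0.07 (standard error) was a 1.16-fold higher level, with an interval from 1.04 to 1.30, a limma p of 0.0125 and an adjusted p of 0.427. It was 0.17 without high-dose replicate 3 (limma p of 0.044), and with every array of replicate 2 left out it was 0.21 with a limma p of 0.0954.

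GSR, glutathione reductase, which spends NADPH to restore oxidized glutathione, is shown in detail after its values were seen. It had values of 10.71, 10.88 and 10.83 in untreated cells, 10.73, 11.00 and 10.97 at low dose, 10.83, 10.96 and 10.99 at the intermediate dose, 11.02, 10.92 and 11.00 at high dose, and 10.72, 10.85 and 10.74 under IFN-α. High dose lay above untreated without overlap, by 0.17 with an interval from -0.01 to 0.36 (limma adjusted p = 0.477). With the experiment as a block, which takes out differences shared by the arrays of 1 experiment, GSR passed an unadjusted p of 0.05 beside GSTP1, so that 2 of 33 genes passed where 16.2% of all clusters did.

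**Figure D3:**
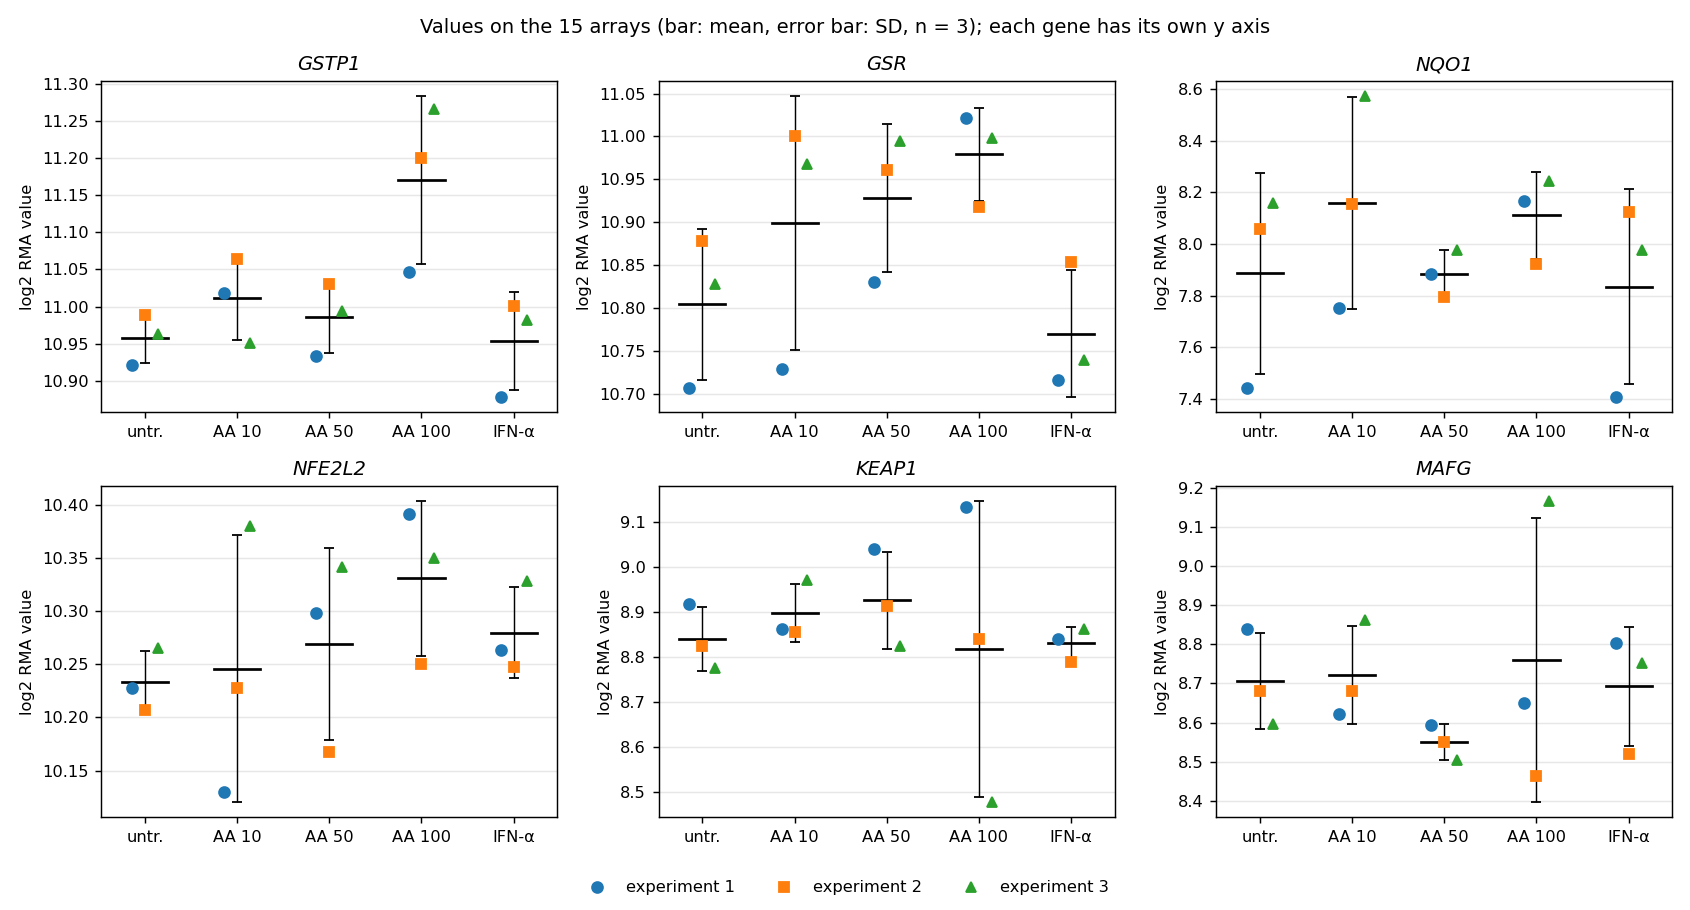
Log2 RMA values (y axis, a separate scale for each gene) of GSTP1, GSR, NQO1, NFE2L2, KEAP1 and the brightest MAFG cluster on the 15 arrays (x axis, AA doses in µg/ml and IFN-α); symbols mark the experiment, bars the mean and error bars the SD of 3 arrays. The high-dose arrays lie above the untreated ones for GSTP1 and GSR and overlap them for the other 4 genes.

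Without overlap between high-dose and untreated arrays stood 3 of the 33 genes, GSR, GSTP1 and TXNRD1, or 9.09% where 10.5% of all clusters did. At the intermediate dose there were 3 as well, CAT above and MGST2 and MAFG below, where 10.4% of all clusters did not overlap. At low dose and under IFN-α 0 of 33 genes stood apart, where 11.6% and 5.55% of all clusters did.

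Synthesis of glutathione did not pass the test in any comparison. GCLC and GCLM, the catalytic and modifier subunits of the rate-limiting glutamate-cysteine ligase, differed at high dose by 0.04 and 0.01, with intervals from -0.19 to 0.28 and from -0.26 to 0.27. GSS, glutathione synthetase, differed by -0.06, with an interval from -0.30 to 0.17, and by 0.10 without high-dose replicate 3. Each of these 3 genes was above its mean on high-dose replicate 1 and below it on replicate 3. The same held for genes of other roles, among them TXN2, PRDX4, CAT, PGD and KEAP1.

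Of the glutathione peroxidase family, GPX1 and GPX4 reduce peroxides with glutathione. At high dose GPX1 differed by -0.02, GPX4, which acts on lipid peroxides in membranes, by -0.19, GPX7 by -0.14 and GPX8 by -0.02, and none passed the test. GPX4 had values of 12.11, 11.89 and 11.41 on the high-dose arrays against 12.09, 11.93 and 11.96 on the untreated ones, so that its difference lay in replicate 3 and was 0.01 without it. GPX1 at low dose was higher than untreated in 3 of 3 experiments, by 0.14 with an interval from -0.06 to 0.34, and it was the 1 gene that passed an unadjusted p of 0.05 at low dose with the experiment as a block (limma p of 0.0473), where 4.58% of all clusters passed. The microsomal glutathione transferases MGST1, MGST2 and MGST3 differed at high dose by 0.02, 0.11 and -0.09. MGST2 had values of 6.03, 6.43 and 6.74 at high dose and 6.32, 6.27 and 6.28 untreated, so that the high-dose arrays lay on both sides of the untreated ones, and without replicate 3 its difference was -0.06. Of the 12 glutathione genes 6 were higher and 6 lower at high dose, with a median of -0.0039.

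Among the thioredoxin and peroxiredoxin genes, 7 of 10 were higher at high dose and 3 lower, with a median of 0.05, and 0 of 10 passed the test. TXN, the cytosolic thioredoxin that passes electrons to oxidized proteins, had values of 11.25, 11.35 and 11.43 in untreated cells and 11.52, 11.42 and 11.56 at high dose, a difference of 0.16 with an interval from -0.16 to 0.48. TXNRD1, the selenoenzyme that reduces it with NADPH, had values of 9.19, 9.06 and 9.26 untreated and 9.28, 9.26 and 9.41 at high dose. The TXNRD1 groups did not overlap, but the second high-dose array and the third untreated one were equal to 2 decimals, and the difference of 0.15 had an interval from -0.17 to 0.46. Their mitochondrial counterparts TXN2 and TXNRD2 differed by -0.01 and -0.04, and both had their lowest value of the 15 arrays on high-dose replicate 3. Without that array TXN2 differed by 0.15 and TXNRD2 by 0.13.

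The peroxiredoxins, which break down hydrogen peroxide, stayed close to untreated cells. At high dose PRDX1 differed by 0.05, PRDX2 by 0.04, PRDX3, the mitochondrial form, by 0.05, PRDX4, the form of the endoplasmic reticulum, by -0.09, and PRDX6 by 0.08. PRDX4 had its lowest value of the 15 arrays on high-dose replicate 3, and without that array it differed by 0.0045. SRXN1, sulfiredoxin, which repairs overoxidized peroxiredoxins, differed by 0.12 with an interval from -0.14 to 0.38. PRDX4 was lower than untreated in 3 of 3 experiments at low dose, by 0.14, and at the intermediate dose, by 0.11, and both intervals crossed 0.

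Catalase and the superoxide dismutases were each higher on average at all 3 AA doses, and 0 of 3 passed the test at any dose. CAT, which splits hydrogen peroxide, differed by 0.07 at high dose with an interval from -0.11 to 0.25. SOD1 and SOD2, which turn superoxide into hydrogen peroxide in the cytosol and in mitochondria, differed by 0.12 and 0.10, with intervals from -0.09 to 0.32 and from -0.11 to 0.32. SOD1 was higher in 3 of 3 experiments at high dose, with values of 10.69, 10.43 and 10.53 against 10.49, 10.37 and 10.43, and the groups overlapped.

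The genes of NADPH supply and NQO1 went both ways at high dose, 3 of 5 higher and 2 lower, and 0 of 5 passed. PGD, 6-phosphogluconate dehydrogenase, which forms NADPH in the pentose phosphate pathway, had values of 12.09, 12.04 and 11.98 in untreated cells and 12.09, 11.95 and 11.40 at high dose. Most of its difference of -0.22, with an interval from -0.54 to 0.09, came from replicate 3, the lowest of the 15 arrays, and it was -0.02 without it. TKT, transketolase of the non-oxidative branch, differed by -0.13, with values of 11.33, 11.27 and 11.30 untreated and 11.30, 11.27 and 10.96 at high dose, and by -0.02 without replicate 3. TALDO1, transaldolase of the same branch, differed by 0.19 in the other direction, with an interval from -0.05 to 0.42. Its value was the same, 10.4782, on all 3 intermediate-dose arrays (SD of 0), which narrows the spread behind its intervals and p-values. ME1, the cytosolic malic enzyme, which makes NADPH outside the pentose phosphate pathway, differed by 0.20, with an interval from -0.04 to 0.43 and a value of 0.08 without replicate 3, at a signal below the lower quartile on all 15 arrays.

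NQO1, a quinone reductase and a classic NRF2 target, had the widest range over the 15 arrays of the 33 genes. Its values were 7.44, 8.06 and 8.16 in untreated cells, 7.75, 8.16 and 8.57 at low dose, 7.88, 7.79 and 7.98 at the intermediate dose, 8.17, 7.92 and 8.24 at high dose, and 7.41, 8.12 and 7.97 under IFN-α. All 5 groups overlapped, over a range of 1.17 on the 15 arrays, and the lowest values were those of experiment 1 in untreated and IFN-α cells. The high-dose difference of 0.22 had an interval from -0.26 to 0.71 and the low-dose difference of 0.27 one from -0.21 to 0.76, so that a change of this gene by up to 1.64-fold at high dose and 1.69-fold at low dose could not be told from none.

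**Figure D4:**
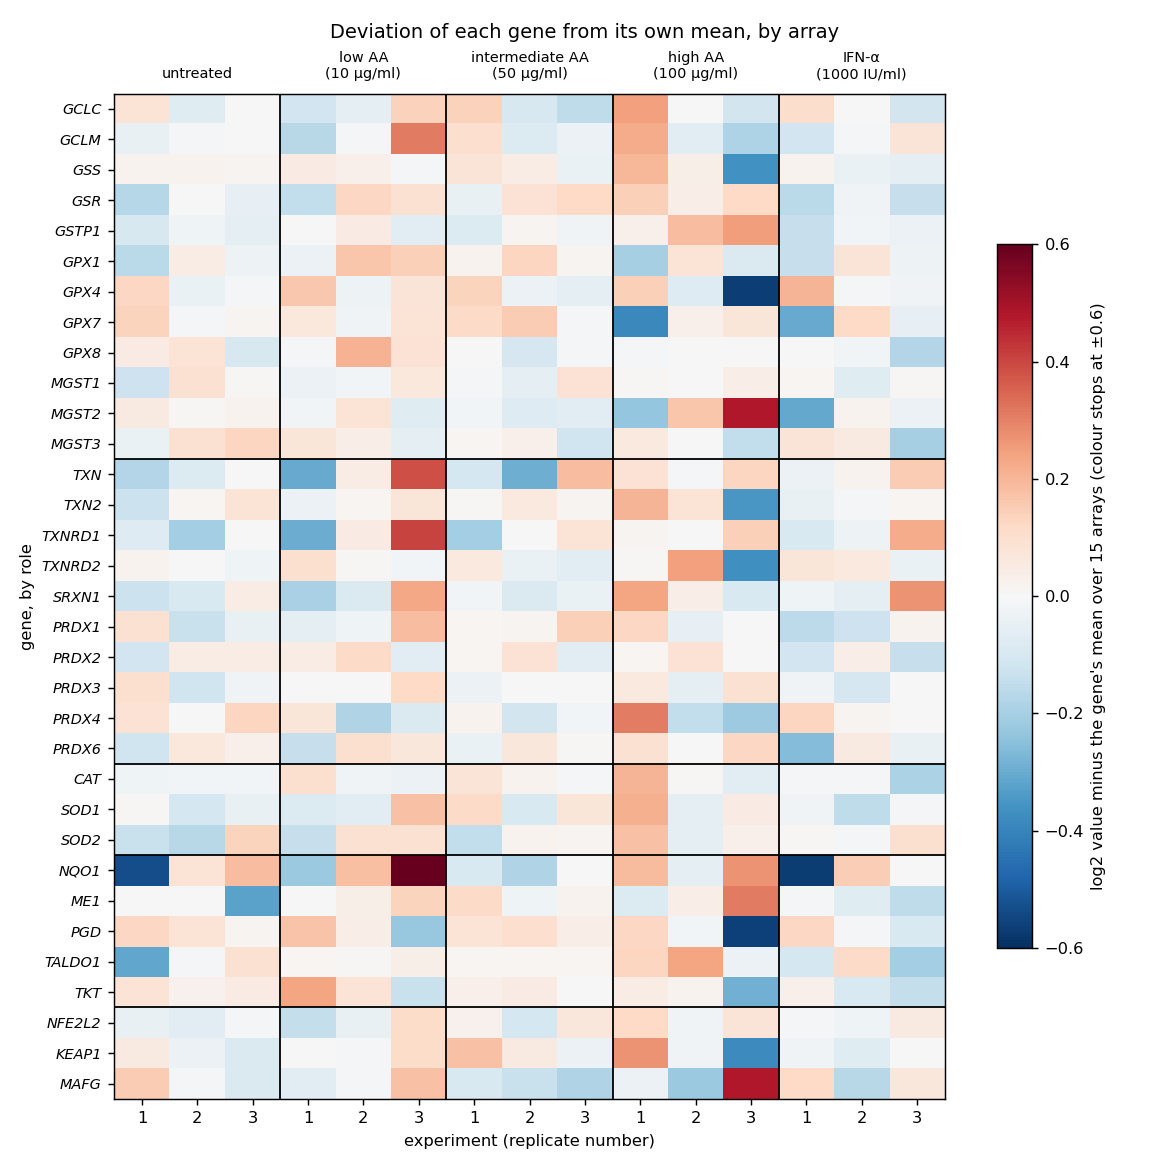
Log2 value of each of the 33 genes (rows, by role) minus the mean of that gene over the 15 arrays (columns, by condition and experiment); red is above and blue below the mean. High-dose AA replicate 3 holds the lowest values of GPX4, PGD, KEAP1, GSS, TXN2 and TXNRD2, while low-dose AA replicate 3 holds the highest of NQO1, TXN and TXNRD1.

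Some single arrays held many of the extreme values. High-dose replicate 3 was the lowest of the 15 arrays for 9 of the 33 genes (27.3%) and the highest for 5, beside 23.4% and 29.7% of all clusters. High-dose replicate 1 was the highest for 10 genes (30.3%), where it was the highest for 11.3% of all clusters. Low-dose replicate 3 was the highest for 6 genes (18.2%, beside 4.51% of all clusters), GCLM, TXN, TXNRD1, PRDX1, PRDX3 and NQO1. These extremes were counted after the values were seen and carry no test. Within the experiments, the median difference of the 33 genes at high dose was 0.13 in experiment 1, 0.04 in experiment 2 and -0.04 in experiment 3, with 23, 22 and 16 genes higher. Without high-dose replicate 3, 2 genes passed an unadjusted limma p of 0.05 at high dose, GSTP1 and TALDO1, where 4.93% of all clusters did, and the median of the 33 genes was 0.0877. The p of TALDO1 rests on a spread narrowed by its equal intermediate-dose values.

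A dose response to AA was asked of the 12 arrays without IFN-α, as a slope in log2 units per 100 µg/ml. Slopes of the 33 genes ran from -0.21 for GPX4 to 0.19 for GSTP1, with a median of 0.0259 beside 0.0116 over all clusters. At an unadjusted p under 0.05, 1 gene passed, GSTP1, where 11.5% of all clusters did, and at a p under 0.001 0 passed (0.245% of all clusters). The GSTP1 slope had an interval from 0.04 to 0.33 (limma p of 0.0179, adjusted p = 0.412). Its low- and intermediate-dose means, 11.01 and 10.99, were not in the order of the doses.

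High-dose AA set against IFN-α gave 2 genes at an unadjusted p under 0.05, GSR and GSTP1, or 6.06% where 12.1% of all clusters passed. At a p under 0.001 0 passed, where 0.650% of all clusters did. GSTP1 was 0.22 higher (limma p of 0.0112, adjusted p = 0.326) and GSR 0.21 higher (limma p of 0.0315, adjusted p = 0.379) with high-dose AA. For both genes the groups did not overlap, and these were 2 of 33 genes that stood apart (6.06%), where 11.2% of all clusters did. This comparison shares the high-dose arrays with that against untreated cells. IFN-α itself left every gene overlapping with untreated cells, and its widest intervals reached from -0.54 for NQO1 to 0.45 for TXN.

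The 3 experiments were compared next. With the conditions in the model, 8 of 33 genes (24.2%) differed between the 3 experiments at an unadjusted limma F test p under 0.05, where 22.7% of all clusters did. At a p under 0.001 0 did, where 2.78% of all clusters did, and the smallest adjusted p was 0.0808. The 8 genes were GPX1, GPX4, TXN, TXNRD1, PRDX4, NQO1, PGD and TKT. The mean of NQO1 over the conditions was 7.73 in experiment 1, 8.01 in experiment 2 and 8.19 in experiment 3. That of TXNRD1 was 9.14, 9.23 and 9.44 and that of TXN 11.32, 11.37 and 11.60, while that of PGD was 12.09 in experiment 1 and 11.80 in experiment 3. Experiment 3 was thus the highest for TXN, its reductase and NQO1, and the lowest for PGD. It was also the lowest for GPX4 and TKT with all arrays, but without the high-dose arrays its GPX4 mean, 11.97, lay above that of experiment 2, 11.94. Without high-dose replicate 3 alone, TKT no longer passed, and 9 genes did (24.6% of all clusters), SRXN1 and SOD1 among them. The numbers of the experiments are names and have no order.

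**Figure D5:**
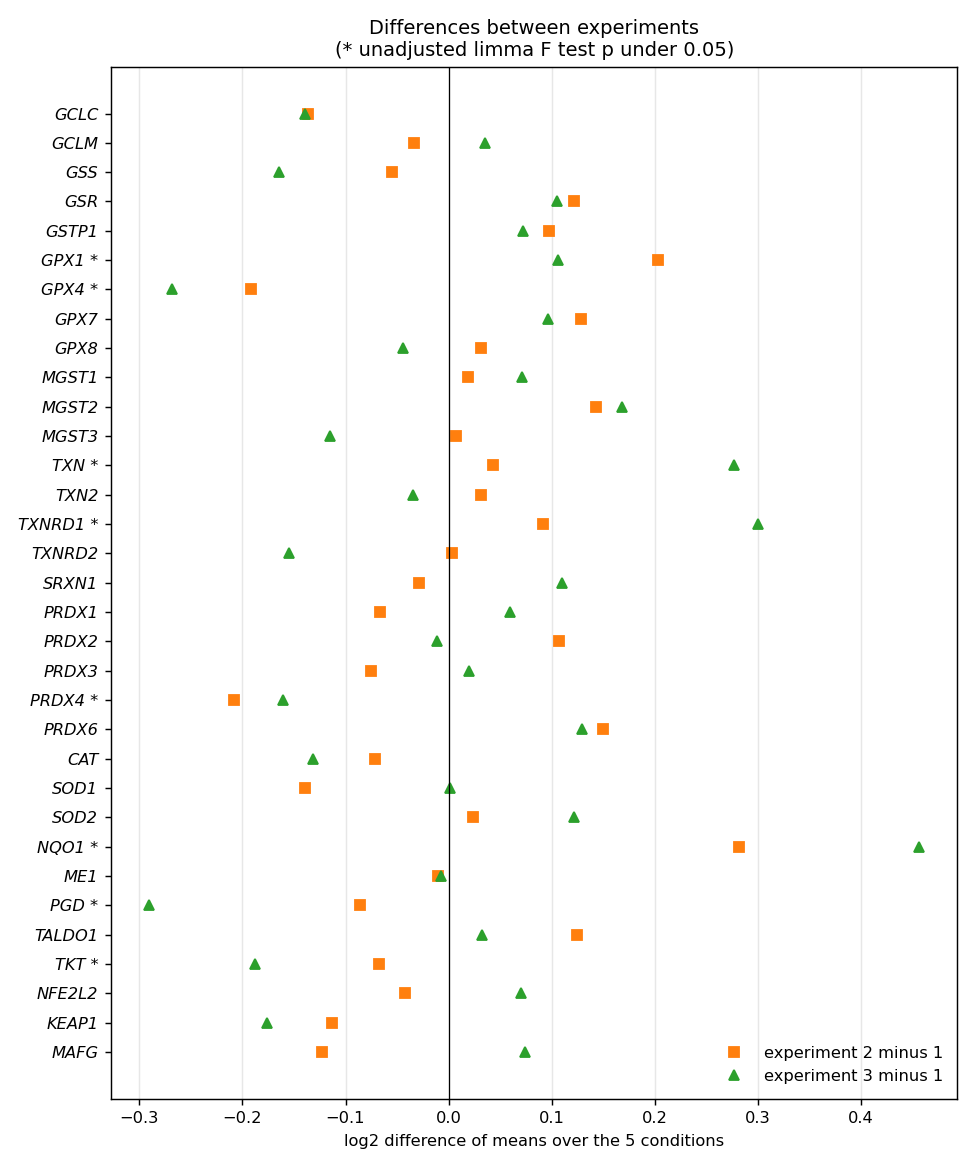
Difference of the mean log2 value over the 5 conditions (x axis) between experiment 2 or 3 and experiment 1, for the 33 genes (y axis); a star marks an unadjusted limma F test p under 0.05. NQO1 lies furthest to the right, at 0.46 in experiment 3, and PGD furthest to the left, at -0.29.

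Genes of the same pathways outside the 34 were counted from 4 further lists, at an unadjusted limma p under 0.05 at high dose. Over all clusters, 7.34% were higher and 3.62% lower at that threshold. Of 22 other NRF2 targets 0 were higher and 1 was lower, of 20 other genes of the pentose phosphate pathway and NADPH 0 and 1, of 27 genes of glutathione use and breakdown 2 and 4, and of 22 genes of the thioredoxin fold and redox repair 1 and 2. The medians of the 4 lists ran from -0.07 to 0.00, beside 0.0161 over all clusters.

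Of these lists, 1 gene passed a p under 0.001 at high dose, where 0.259% of all clusters did. This gene was SLC7A11, the exchanger that imports cystine, the precursor of glutathione. It fell from 9.20 ± 0.15 to 8.56 ± 0.12 (SD, n = 3), a difference of -0.64 with a limma p of 6.62e-05 and an adjusted p of 0.26. At the intermediate dose its difference was -0.55 (limma p of 0.000243) and under IFN-α -0.01. HMOX1, haem oxygenase, named here after its value was seen because it is a standard readout of NRF2, differed by 0.01 at high dose. CHAC1, which breaks down glutathione, differed by -0.61 (limma adjusted p = 0.385), GPX2 by 0.29 and GGT7 by -0.39. The study itself names SLC7A11 and CHAC1 among the top genes lowered by high-dose AA on these same arrays. The lists were made with such results known, so that the falls of these genes are no independent result. H6PD, which starts the pentose phosphate pathway in the endoplasmic reticulum, differed by -0.60, with an SD of 0.69 at high dose. The sestrins SESN2 and SESN3 differed by -0.57 and -0.54 and SELENOP, a selenium carrier, by 0.33, at a signal below the lower quartile on all 15 arrays. Under IFN-α 1 gene of the 4 lists passed a p under 0.001, where 0.280% of all clusters did. The same gene alone passed a p under 0.05, where 1.39% of all clusters did. It was LAP3, a peptidase that acts in glutathione breakdown, higher by 0.93 (limma p of 1.93e-07, adjusted p of 0.000187).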

How the data were processed

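RNA of MT-2 cells was measured on 15 Affymetrix Human Gene 1.0 ST arrays, 3 for each of 5 conditions. The authors deposited log2 values of the robust multichip average (RMA, background-corrected and quantile-normalized, from the xps package per their methods), 1 for each transcript cluster and array. These values were used as deposited. RMA makes the distributions of the arrays alike, so that a shift shared by most genes is largely removed, but array medians still ran from 6.69 (high-dose AA replicate 1) to 6.85 (high-dose AA replicate 3). High-dose AA replicate 3 also had a lower quartile of 5.531, where that of every other array was at most 5.322. Its SD over all clusters was 2.022, where that of every other array was at least 2.12. Clusters were named through the platform annotation: 19310 had 1 symbol, 1752 several and 7864 none, and members were taken only from the first. The annotation names no genome build, and cluster positions are not given.

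limma 3.58.1 (R 4.3.3, defaults) was fitted to all 28926 clusters with a mean for each condition. Unadjusted p-values under 0.001, the threshold of the study, and under 0.05, and Benjamini-Hochberg values over all clusters were used. The slope used 12 arrays, and the experiments were tested with an F test beside the conditions. The fit was checked on simulated arrays with known changes and independent errors. They held no effect of an experiment and no outlying array, so that the check does not cover these. The number of arrays limits the precision. Members and lists were chosen with earlier results of these data known.

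All 34 members are named. Values on all arrays are given for members with an unadjusted p under 0.05 in the high-dose, slope or IFN-α comparison, for NFE2L2, KEAP1 and MAFG, and for GSR and NQO1, which were chosen after their values were seen, as were the other members shown by array. For MAFG, counts use the brightest of 3 clusters. Of each further list, up to 3 genes of smallest p are named.

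Per the labels, triplicates came from separate experiments, and a shared tag ties 1 array of each condition to each of them. The tags of experiments 2 and 3 differ only by a letter, so that how far these 2 were separate is not known. Deviations from the condition means had a median correlation of 0.281 within experiments (30 pairs, from -0.194 to 0.536) and -0.172 between them. Alternatives were the experiment as a fixed or random block (statmod 1.5.0), leaving out the dimmest 25% of clusters, trended and robust variances, array weights, cyclic loess, the compared groups alone, the mean over a gene's clusters, and dropping single arrays or whole experiments.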

Additional observations from a re-analysis of the deposited data

How the results depend on the processing

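Shares in brackets, where given, are those of all clusters at the same threshold and setting. Of the 33 genes, the number at an unadjusted limma p under 0.05 at high dose (main value 1) was 2 with the fixed replicate block (16.2%) and 2 with the random one (14.8%), 7 with array weights (33.8%), 3 after cyclic loess (11.4%) and 0 with the compared groups alone (3.76%). At low dose (main value 0) it was 1 with the fixed replicate block (4.58%) and 2 with array weights (10.4%). For high-dose AA minus IFN-α (main value 2) it was 8 with array weights (34.9%) and 0 with the compared groups alone (4.53%). For the slope (main value 1) it was 3 with array weights (8.24%) and 2 after cyclic loess, and between experiments (main value 8) 17 with array weights (32.7%) and 13 after cyclic loess (25.3%). At a p under 0.001, array weights gave 2 at high dose (GSTP1 and TXNRD2, 7.22%), 2 for high-dose AA minus IFN-α (GSTP1 and TALDO1, 7.43%) and 1 between experiments (6.21%). TXNRD2 turned from -0.04 to 0.2449 with array weights, and the cause was not tested. Its values were 7.93, 8.17 and 7.56 at high dose and 7.95, 7.93 and 7.90 in untreated cells. A rise of that size is thus seen on high-dose AA replicate 2 alone. Leaving out 1 array or experiment gave 0 to 6 genes at a p under 0.05 at high dose, with 0 without replicate 2 (6.55%), 6 without high-dose AA replicate 1 (27.3%) and 2 without high-dose AA replicate 3 (4.93%). It gave 0 to 2 at low dose (2 without low-dose AA replicate 1, 2.91%). For high-dose AA minus IFN-α it gave 0 to 5 (5 without high-dose AA replicate 1, 28.4%). For the slope it gave 0 to 4 (4 without high-dose AA replicate 1, 24.6%). Between experiments it gave 5 to 10 (5 without IFN-α replicate 1, 18.2%, and 10 without untreated replicate 3, 29.6%). GSTP1 was higher at high dose under all 26 alternatives, by 0.166 to 0.2758, and at a p under 0.05 in 23 of them. It did not reach that p with the compared groups alone, without experiment 2 or without experiment 3. The alternatives reuse the same arrays, so that their agreement is no independent support. No replicate block brought a gene to a p under 0.001. Without high-dose AA replicate 3 the differences of 8 of the 33 genes changed sign, GSS, GPX4, MGST2, TXN2, TXNRD2, PRDX4, KEAP1 and MAFG, and none of the 8 passed a p of 0.05 with or without it.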
